A study of Macaca mulatta with 23 samples.

Results

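DNA methylation was described in 8 gene windows of the Notch pathway: the receptors NOTCH1 and NOTCH3, the ligands JAG2, DLL1 and DLL4, and the target genes HES1, HES5 and HEY1. A window was a fixed stretch of the human genome build hg19, whose coordinates the deposited table uses, and every measured position inside it was a member. The windows held 1105 of the 444312 positions of the table (0.249%). A position belonged to a window by its coordinate. Exons, introns and untranslated regions were not analysed here. Positions are given by coordinate and by their distance from the window edge on the side of the gene start. This edge is called the gene start edge or start edge. The gene start itself was not located, so these are not distances from the gene start.

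The samples were genomic DNA from the central amygdala of 23 young rhesus monkeys (Macaca mulatta), with 1 library per monkey. This nucleus is an output station of the amygdala that takes part in fear and anxiety responses. Reduced representation bisulfite sequencing was used, in which DNA is cut with MspI at CCGG sites so that CpG-rich fragments are read, and bisulfite treatment separates methylated from unmethylated cytosines. The comparison of the study was the anxious temperament score, taken as a continuous trait with age as the covariate. The labels name no treatment or genotype. The score ran from -1.48 to 1.43, age ran from 1.1 to 2.13 years, and 11 samples came from the left and 12 from the right hemisphere, each from another monkey. Samples are named by hemisphere and a number that carries no pairing.

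Notch receptors are cell surface proteins that are cut when a ligand on a neighbouring cell binds them. The freed inner part of the receptor enters the nucleus, joins the DNA-binding protein RBPJ and switches on target genes, among them the HES and HEY repressors. In the developing brain this signal keeps progenitor cells from becoming neurons, and in the adult brain it takes part in the upkeep of neural stem cells and in synaptic plasticity. Methylation of CpG-rich sequence at gene starts is in general low.

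The libraries differed in completeness. A median of 2.9% of the window positions lacked a value, with a range from 0 to 44.3%. The library left 3 lacked 44.3%, right 9 lacked 27.5% and left 4 lacked 16.5%. At window positions of intermediate level, 28.1% of the values of left 3 and 37.4% of those of right 9 were exactly 0 or 100, against a median of 2.86%. Read counts are not part of the deposited values and the depth behind each is unknown. Each level is a mean over the DNA of all cells of the tissue piece, so a difference in cell makeup and a difference within a cell type cannot be told apart. Macaque reads were placed on human coordinates, and a site that differs between the species can read as unmethylated.

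NOTCH1, a receptor with roles in neural progenitors, had the highest mean level of the 8 windows when all positions were averaged. Its window (chr9:139386000-139444000) held 155 positions with a mean level of 49.6% ± 4.21 (SD, n = 23). Of these positions 46 had a mean level under 20%, 46 a mean level over 80% and 63 lay between. The window had 14 runs of neighbouring positions, called regions here (3 or more positions, none over 200 bp from the next). The 2 regions nearest the gene start edge were low. The 4 positions at chr9:139435673-139435765, 8.23 kb from the edge, had a mean of 9.41% ± 2.85 (n = 23), and the 20 positions at chr9:139421222-139421345 a mean of 8.38% ± 3.93 (n = 23). The other 12 regions had means from 29.9% to 78.1%. The region with the most positions among these, chr9:139417283-139417476 with 20, ran over 21 monkeys from 66.1% to 78.5% with a median of 70.8%. The highest region, chr9:139409968-139410023 with 10 positions, had a mean of 78.1% ± 6.59 (n = 21).

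NOTCH3, the receptor known from blood vessel smooth muscle cells and their inherited disease CADASIL, held sharply separated levels. Its window (chr19:15268000-15315000) had 199 positions, of which 132 were under 20%, 63 were over 80% and only 4 lay between. The largest region of all 8 windows lay here, a run of 105 positions at chr19:15288277-15288744. Its level was 1.34% ± 0.622 (n = 23), from 0.75% to 2.54% with a median of 1.09%, so every monkey was low. This run lay 26.26 kb from the gene start edge, inside the window and between methylated runs. On one side, 44 positions at chr19:15284912-15285209 had a mean of 91.7% ± 2.6 (n = 23), a step of 90.4 points over a gap of 3.07 kb. On the other side, 18 positions at chr19:15289895-15290031 had a mean of 74.8% ± 1.45 (n = 23), a step of 73.5 points over 1.15 kb. That mean joined 4 positions under 20% and 14 over 80%. The region nearest the start edge, chr19:15311589-15311701 with 18 positions, was low as well, at 2.17% ± 0.9 (n = 23). The highest value at the 44 positions was 100% in right 9, where 15 of the 44 positions had a value.

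**Figure D1:**
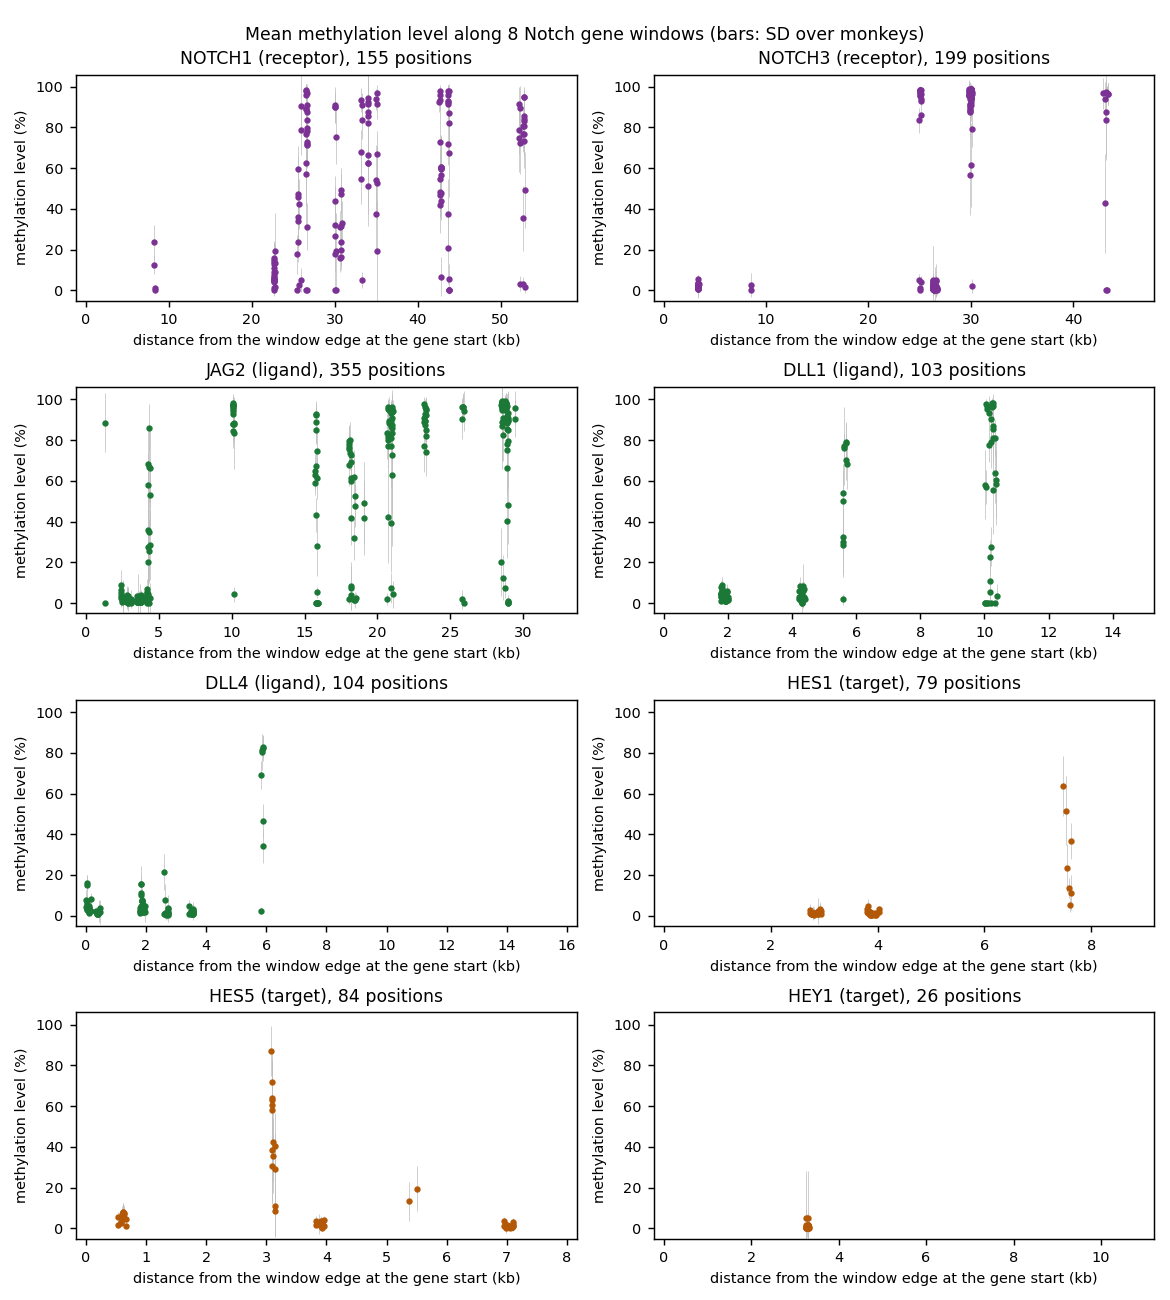
Mean methylation level in percent (vertical axis) of each position by distance in kb from the window edge on the gene start side (horizontal axis). Each gene window has 1 panel, with points for positions and grey bars for the SD over monkeys. NOTCH1 holds many intermediate levels, NOTCH3 shows a low run of 105 positions at 26.26 kb between methylated runs, and DLL4, HES1 and HES5 are low outside 1 run each and HEY1 is low throughout.

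JAG2, a ligand of the Jagged type, held the most positions, 355 in the window chr14:105605000-105638000. Of these 194 were under 20%, 108 over 80% and 53 between. The 3 regions nearest the start edge were low: 84 positions at chr14:105634190-105634486 had a mean of 1.09% ± 0.56 (n = 23), 36 at chr14:105634898-105635191 had 1.16% ± 0.647 (n = 23) and 19 at chr14:105635426-105635610 had 2.59% ± 1.36 (n = 21). The next region inward, chr14:105633612-105633889, held both kinds of level. Its 26 positions on the side of the gene start, from 105633764 on, had means from 0.0435% to 6.74%, while the other 14, up to 105633756, had means from 0 to 86.2% with a median of 35.3%. This edge was singled out after its values were seen. The 7 regions further in had means from 43.2% to 88.9%, the highest at chr14:105614653-105614794 (15 positions, 88.9% ± 2.56, n = 21). A single value stood apart at chr14:105627853-105627913: left 5 had 22%, from 1 of the 16 positions, and the other 20 monkeys with values had 82.3% to 93.7%.

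DLL1, a ligand of the Delta type, passed from low to intermediate levels along its window (chr6:170588000-170603000, 103 positions). The 34 positions at chr6:170601002-170601219, 1.78 kb from the start edge, had a mean of 3.6% ± 1.43 (n = 20), and the 25 at chr6:170598601-170598782 had 3.54% ± 2.17 (n = 22). The next 12 positions, at chr6:170597305-170597414, had a mean of 54.3% ± 7.19 (n = 23), a step of 50.8 points over 1.19 kb. The 32 positions at chr6:170592617-170592992 averaged 55.3% ± 2.94 (n = 23), but this mean joined 9 positions under 20% and 13 over 80%. DLL4, the Delta ligand best known from blood vessel sprouting, was low over most of its window (chr15:41218000-41234000, 104 positions). Its 4 regions nearest the start edge had means from 1.67% to 5.21%, the largest with 30 positions each at chr15:41218013-41218480 (3.7% ± 0.861, n = 23) and chr15:41219792-41219956 (5.21% ± 1.12, n = 23). Only the 8 positions at chr15:41223820-41223892 were higher, at 59.9% ± 3.01 (n = 23), with a lowest monkey of 54.9% and a highest of 66.5%.

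The target genes were low in all regions but 1 of HES1 and 1 of HES5. HES1, a repressor that holds back neuronal differentiation, had 79 positions in its window (chr3:193851000-193860000), of which 75 were under 20% and 0 over 80%. Its 2 regions of 36 positions each, chr3:193853732-193853948 and chr3:193854810-193855018, had means of 1.31% ± 0.775 and 1.27% ± 0.617 (n = 22 each). The third, 7 positions at chr3:193858470-193858622, had a mean of 33.4% ± 17.1 (n = 21). Its highest value, 100% in right 3, came from 1 of the 7 positions, and its median was 30%. The library left 3 had no value at any of the 79 positions.

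HES5, another repressor of this family that marks Notch activity in neural progenitors, had 84 positions (chr1:2457000-2465000). The largest run, 32 positions at chr1:2457889-2458040, had a mean of 1.05% ± 0.636 (n = 23). It lay 6.96 kb from the start edge, at the far side of the window. The 22 positions at chr1:2461040-2461172 had 2.11% ± 0.959 and the 14 at chr1:2464327-2464462 had 5.37% ± 1.67 (n = 23 each). Between these low runs lay 14 positions at chr1:2461860-2461915 with a mean of 46.9% ± 8.24 (n = 19), from 34.9% to 66.7% with a median of 45.3%. The position means inside this short run reached from 8.72% to 87.2%. It was too incomplete to be tested.

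HEY1, a related repressor, had the lowest level of all, with 26 positions in a single region at chr8:80680681-80680750 (window chr8:80673000-80684000). Its mean was 0.995% ± 1.76 (n = 23), from 0 to 7.69% with a median of 0.346%. The highest value was that of right 9, in which 2 positions, 80680695 and 80680749, were listed at 100% and the other 24 at 0. Those 2 positions were named after their values were seen.

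Of the 17 regions that lay within 5 kb of the gene start edge, 16 had a mean under 20% and their median was 2.59%. The exception was the HES5 run of 14 positions. Of the 30 regions further away, 4 were under 20%, 22 lay between 20% and 80% and 4 were over 80%, with a median of 61%. Those 4 low regions were the 2 of NOTCH1 described above, the NOTCH3 run of 105 positions and the HES5 run of 32. A region mean between 20% and 80% can join low and high positions. Of the 7 positions at JAG2 chr14:105612077-105612202 (67.7%), 2 were under 20% and 5 over 80%. Of the 9 at NOTCH1 chr9:139413167-139413304 (29.9%), 3 were under 20% and 0 over 80%. Over the windows 160 of the 1105 positions had a mean from 20% to 80%. The limit of 5 kb was set after the values were seen, and it is counted from the window edge, not from the gene start. Over the windows 64.3% of the positions were under 20% and 21.3% over 80%, beside 60.9% and 21.1% over the whole table.

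**Figure D2:**
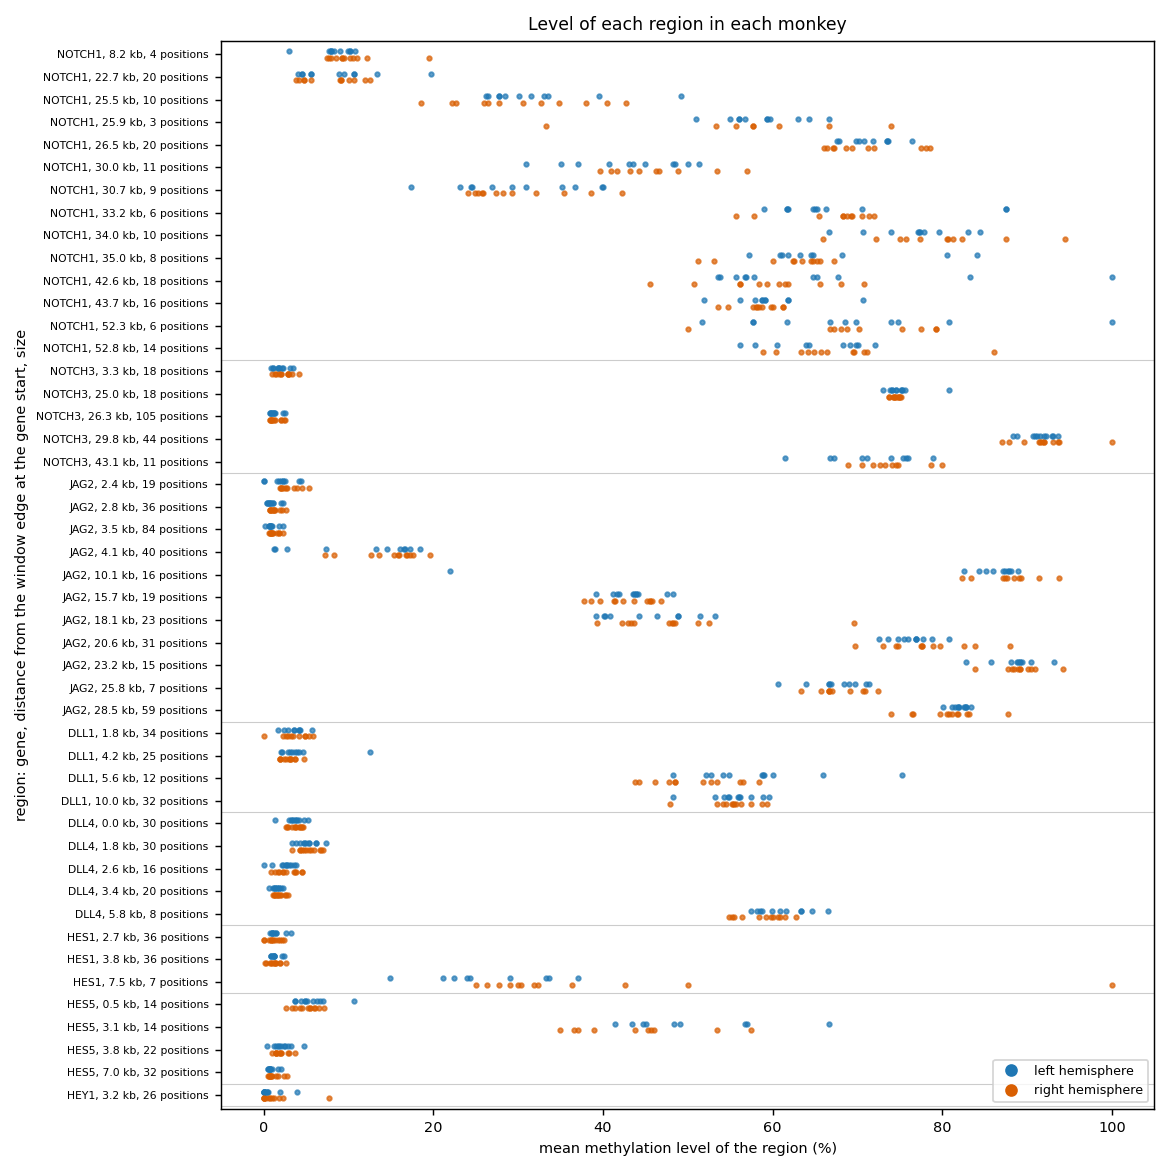
Mean methylation level in percent (horizontal axis) of each of the 47 regions (rows), with 1 point per monkey, blue for left and orange for right. Rows are ordered by gene and by distance from the window edge on the gene start side. Low regions such as the NOTCH3 run of 105 positions sit within a few points in all monkeys, while single points far from the rest include left 5 at 22% in JAG2 and right 3 at 100% in HES1, both from 1 position.

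Ordered by the mean over all positions of a window, the levels were 49.6% for NOTCH1, 36.2% ± 3.63 for JAG2, 31.7% ± 3.18 for NOTCH3, 28.7% ± 9.24 for DLL1, 8.18% ± 3.01 for HES5, 8.09% ± 0.539 for DLL4, 3.58% ± 1.03 for HES1 and 0.995% for HEY1. The value for HES1 is over 22 monkeys and the others over 23. NOTCH1 was above JAG2 in 23 of 23 monkeys and JAG2 above NOTCH3 in 20 of 23. NOTCH3 was above DLL1 in 18 of 23, by 3 ± 10.2 points (mean and SD of the difference), and HES5 above DLL4 in 16 of 23, by 0.0968 ± 3.1 points, so on plain means the difference of either pair was smaller than its spread. DLL4 was above HES1 in 22 of 22 monkeys and HES1 above HEY1 in 21 of 22.

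The plain mean of a window moved with the positions that a monkey had. For DLL1 it was 56.9% in left 3, 55.1% in left 4 and 39.2% in right 3, with values at 28, 38 and 66 of the 103 positions. The other 20 monkeys lay between 19.1% and 28.3%. With each value set against the mean of its own position over monkeys, DLL1 came to 25.7% ± 1.68 (n = 23), JAG2 to 37.8% ± 0.911 (n = 23) and NOTCH3 to 32.2% ± 0.766 (n = 23), while NOTCH1 came to 51.5% ± 3.43 (n = 23). On these values NOTCH3 was above DLL1 in 23 of 23 monkeys, by 6.57 ± 1.89 points, and HES5 above DLL4 in 22 of 23, by 1.89 ± 1.09 points. The order also depended on the positions kept. DLL1 had 21 positions measured in all 23 monkeys, and NOTCH1 had 41. Left 3 had no value in the low DLL1 regions, so their positions were not among these. Where only positions measured in all 23 monkeys were averaged, DLL1 was the highest of the 6 windows that had any, at 56.7%, above NOTCH1 at 25%, NOTCH3 at 23.1%, JAG2 at 15.5%, DLL4 at 9.74% and HES5 at 2.28%.

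There were 416 pairs of measured positions directly next to each other, and their mean levels differed by a median of 0.723 points. A pair could be both strands of a CpG or, where CpGs adjoin, positions of neighbouring CpGs. Strand agreement was therefore not measured apart. The members of a pair were within 10 points of each other in 93% of the pairs, beside 86.7% over the table. They were over 50 points apart in 10 pairs (2.4%), beside 4.97%. Of these 10 pairs 6 lay in JAG2, 3 in NOTCH3 and 1 in DLL4. Low single positions also stood inside methylated regions: the 9 regions with a median position level over 80% held 211 positions, of which 15 had a mean under 5%.

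The positions that varied most between monkeys were few. An SD over 20 points was seen at 25 positions (2.26%), beside 4.65% over the table. The largest SD was that of JAG2 position 105617012, with a mean of 62.9% ± 34.7 (n = 23) and values from 0 to 100%. There 3 monkeys were at 0, 2 lay between 20% and 40%, 6 between 40% and 60%, 2 between 60% and 80% and 6 between 80% and 100%, and 4 were at 100%. The position next to it, JAG2 105617013, had 72.5% ± 28.8 (n = 21). In NOTCH1, positions 139417399 and 139401346 had 62.6% ± 33.1 (n = 20) and 72.9% ± 25.7 (n = 21), and in HES5 position 2461901 had 38.6% ± 26.7 (n = 18).

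The low regions shared a pattern over libraries. At the 309 window positions with a value in all monkeys and a mean under 5%, the 5 highest libraries were left 7, right 10, right 9, left 9 and right 7, at 2.19% to 2.7%. The other 18 lay between 0.667% and 1.95%. At 104931 such positions outside the windows the same 5 libraries were the highest, at 1.8% to 2.49%, with the other 18 between 0.826% and 1.75%. The part of this pattern in the values of single low regions was not tested.

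**Figure D3:**
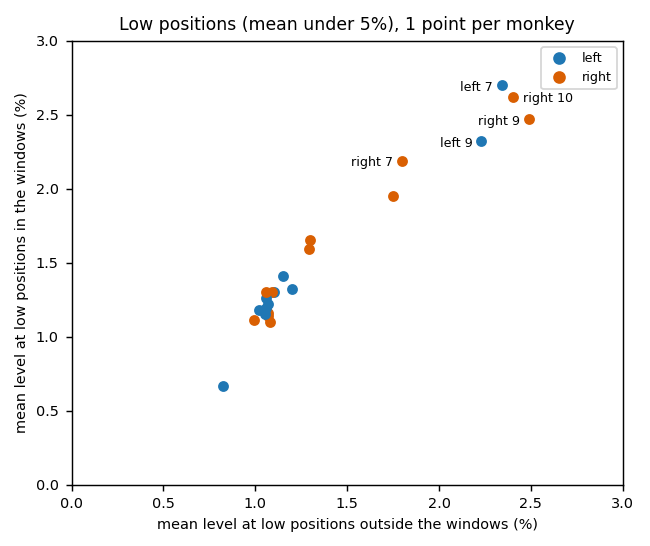
Mean methylation level at complete positions with a mean under 5%, in percent, for the 309 positions in the Notch windows (vertical axis) against the 104931 positions outside them (horizontal axis), with 1 point per monkey, blue for left and orange for right. The 5 labelled libraries are the highest on both axes, at 2.19% to 2.7% inside and 1.8% to 2.49% outside.

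The score was tested first, as the question of the study. No window position was called for the score: 0 of the 442 tested positions passed an adjusted p under 0.05 (limma, Benjamini-Hochberg over 192151 tested positions of the table), and 0 of 192151 (0%) passed over the whole table. At an unadjusted p under 0.05 there were 11 of 442 window positions (2.49%), 4 with a positive and 7 with a negative slope, beside 3.12% of all tested positions (1.49% positive and 1.63% negative). With 1 monkey left out the count ran from 8 of 451 (1.77%, without right 6, beside 3.01% of the table) to 20 of 423 (4.73%, without right 9, beside 4.29%). Without left 3 and right 9 it was 22 of 466 (4.72%), beside 4.6% of the table. By gene, JAG2 had 6 of 125 such positions, NOTCH1 2 of 123, NOTCH3 2 of 68 and DLL1 1 of 50. DLL4 with 42 tested positions, HES1 with 8 and HES5 with 26 had 0, and no HEY1 position had enough monkeys to be tested. The median slope was 0.0763 points per score unit in the windows and 0.0912 over all tested positions. The 95% interval of a position's slope had a median width of 7.63 points per score unit.

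The smallest p for the score belonged to JAG2. At position 105614701 the level in the left samples ran from 84% to 100% with a median of 93% (n = 10), and in the right from 78% to 100% with a median of 91% (n = 11). Right 4, with the lowest score, was at 100% together with 3 others, and the lowest level, 78%, was that of right 12, whose score was 0.89. The level differed by -5.27 ± 1.35 points for each score unit (SE, n = 21), with a 95% interval from -8.05 to -2.48, p = 7.23e-04 and an adjusted p of 1 (limma). The slope was -6.81 within the monkeys whose identifiers start with r and -4.46 within those starting with B. What these identifier series stand for is not given. The position was chosen by its p over all monkeys together, so the values within each series are not independent support.

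A second position of the same JAG2 region, 105614769, ran from 47% to 100% in the left samples (median 78.5%, n = 10) and from 57% to 86% in the right (median 77%, n = 11). Here 1 score unit went with -10.39 ± 2.99 points (SE, n = 21; p = 0.0021 and adjusted p = 1, limma). The region of 15 positions that holds both, chr14:105614653-105614794, ran from 82.8% to 94.2% over 21 monkeys with a median of 89.1%. For the region the slope came to -1.92 ± 0.692 (SE, n = 21), with a 95% interval from -3.36 to -0.47, p = 0.0117 and an adjusted p of 1 (limma). Of its 15 positions 12 had a negative and 3 a positive slope. The positions share reads and monkeys and are not independent.

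**Figure D4:**
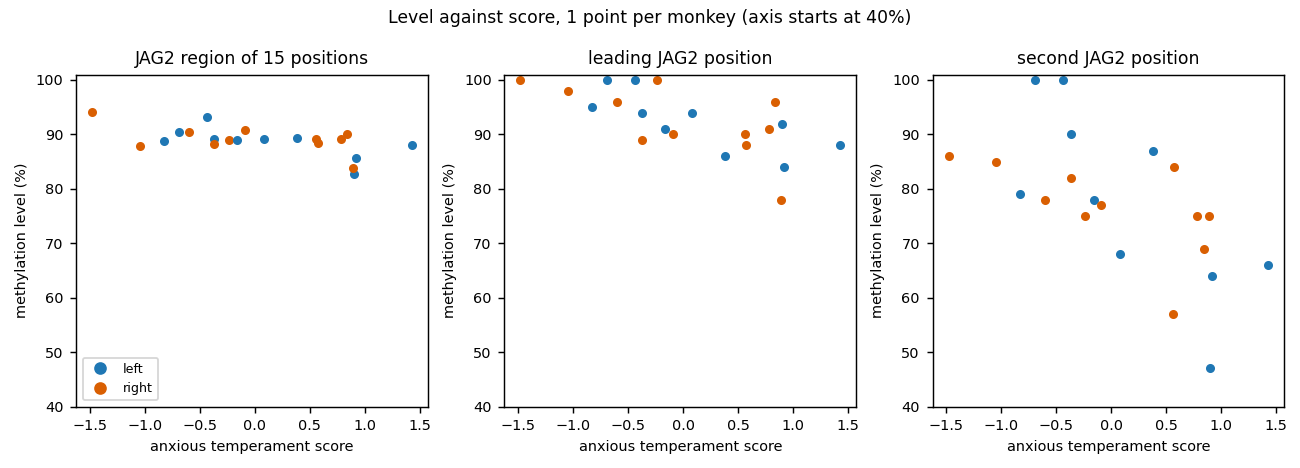
Methylation level in percent (vertical axis, starting at 40%) against the anxious temperament score (horizontal axis) for the JAG2 region of 15 positions, its leading position 105614701 and the second position 105614769, with 1 point per monkey, blue for left and orange for right. The region spans 82.8% to 94.2% and the second position 47% to 100%, and neither the region nor the positions passed an adjusted p under 0.05.

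This JAG2 region was the only one of the 33 tested regions with an unadjusted p under 0.05 for the score (3.03%), beside 3.2% of 21253 regions over the table, and 0 of 21253 (0%) passed the adjusted threshold. The next 4 regions by p had slopes of -1.38 at JAG2 chr14:105622064-105622281 (p = 0.159), 2.29 at NOTCH1 chr9:139413885-139414010 (p = 0.229), -1.54 at NOTCH3 chr19:15271630-15271866 (p = 0.23) and -0.90 at DLL1 chr6:170592617-170592992 (p = 0.354), all with an adjusted p of 1 (limma). With 1 monkey left out the NOTCH1 slope reached 1.44 without right 1 and 4.02 without left 11. The NOTCH3 slope was -0.83 without left 11, and the DLL1 slope was -1.39 without right 4 and -0.42 without right 12. The number of regions with an unadjusted p under 0.05 was 0 of 34 without right 4, beside 2.75% of the table. It was 2 of 33 (6.06%) without right 3, beside 3.22%, and 2 of 33 (6.06%) without left 11, beside 3.46%. The tested regions of HES1, HES5 and HEY1 had slopes of -1.25, -0.45 and -0.03.

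Among the other leading positions, NOTCH3 position 15271774 was at 90% to 100% in all 20 monkeys with a value and had a slope of -3.23 ± 1.01 (SE, n = 20; limma p = 0.00421, adjusted p = 1). NOTCH1 position 139400317 was at 0 in 5 of 20 monkeys and reached 57%, in right 4, the monkey with the lowest score. Its slope was -11.94 ± 4.41 (SE, n = 20; limma p = 0.0131, adjusted p = 1), and -8.74 without right 4. JAG2 position 105617016 was at 100% in 11 of 21 monkeys and lowest in right 4, at 79%. Its slope of 3.64 ± 1.5 (SE, n = 21; limma p = 0.0238, adjusted p = 1) became 1.58 without right 4. The smallest p in the remaining windows belonged to DLL1 170601002 with a slope of -2.06 (p = 0.0393), DLL4 41219822 with -4.72 (p = 0.0505), HES1 193854826 with -1.31 (p = 0.206) and HES5 2464379 with -1.35 (p = 0.254), all with an adjusted p of 1 (limma). Without right 4 the slope at DLL4 41219822 was -2.83 and that at HES1 193854826 was -0.45. The slope at HES5 2464379 was -0.78 without left 2.

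For whole windows the slope of the mean on the score is given as a description. With values set against the mean of each position it was -0.08 points per score unit for NOTCH1 (95% interval -2.15 to 2.00), 0.16 for NOTCH3 (-0.31 to 0.62), -0.10 for JAG2 (-0.66 to 0.46), -0.01 for DLL1 (-1.07 to 1.05) and -0.01 for DLL4 (-0.32 to 0.31). The targets had -0.12 for HES1 (-0.54 to 0.30), 0.14 for HES5 (-0.51 to 0.80) and -0.03 for HEY1 (-1.14 to 1.09). Every interval held 0. With plain means the slopes were -0.54 for NOTCH1, 0.13 for NOTCH3, -0.37 for JAG2, -0.74 for DLL1, -0.02 for DLL4, 0.12 for HES1, 0.83 for HES5 and -0.03 for HEY1. Every interval of these held 0 as well, the widest that of DLL1 from -6.55 to 5.07. With 1 monkey left out the plain slope took both signs in 6 windows, those of NOTCH3, DLL1, DLL4, HES1, HES5 and HEY1.

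**Figure D5:**
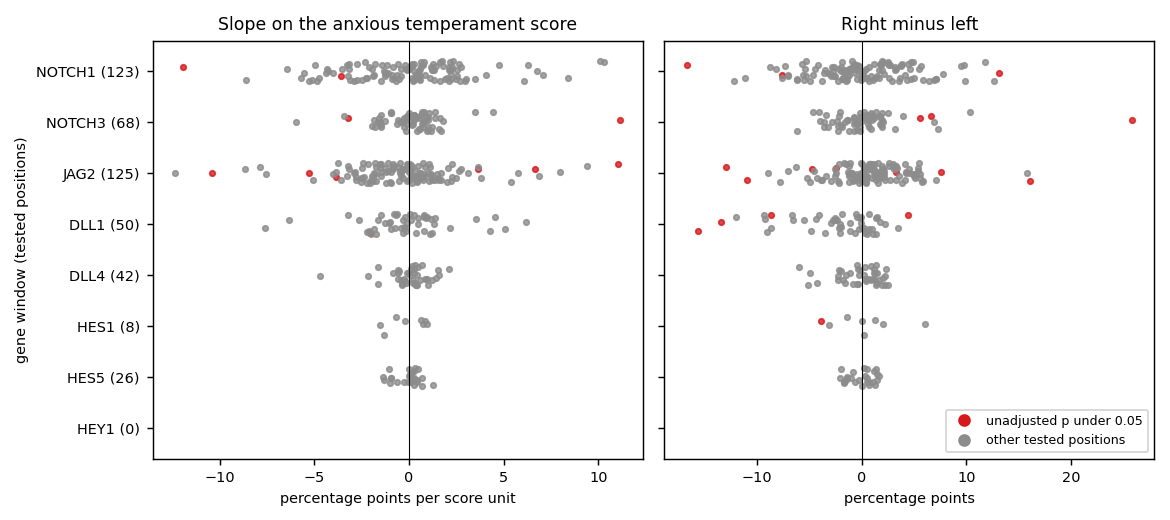
Slope on the anxious temperament score in percentage points per score unit (left) and right minus left difference in percentage points (right) at each tested position, with 1 row per gene window, the number of tested positions in brackets and red points for an unadjusted p under 0.05. The 11 red points of the score and the 18 of the hemispheres lie on both sides of 0, and none passed an adjusted p under 0.05.

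Between hemispheres, no window position was called either: 0 of 442 had an adjusted p under 0.05 (limma), beside 0 of 192151 (0%) over the table. At an unadjusted p under 0.05 there were 18 of 442 (4.07%), 8 higher and 10 lower in the right samples, beside 3.48% over the table (1.89% higher and 1.59% lower). NOTCH3 position 15285101 had the smallest p. It ran from 24% to 73% in the left samples (median 50%, n = 11) and from 30% to 90% in the right (median 69%, n = 11). The right samples were mostly higher, but the groups overlapped, with right 4 at 30%. The difference was 25.82 ± 5.87 points (SE, n = 22; 95% interval 13.66 to 37.98), with p = 2.16e-04 and an adjusted p of 0.93 (limma). The mean of the region of 44 positions around it was 91.4% in the left and 91.9% in the right samples.

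HES1 position 193853732 ran from 2% to 11% in the left samples (median 4.5%, n = 10) and from 0 to 3% in the right (median 1%, n = 12), so the ranges overlapped at 2% to 3%. The difference was -3.91 ± 1.02 points (SE, n = 22; limma p = 8.8e-04, adjusted p = 0.93). The position next to it, 193853733, had a mean of 1.4% in the left and 1.5% in the right samples (n = 10 each). It was named after its values were seen. The mean of the region of 36 positions around them was 1.48% in the left and 1.16% in the right samples. NOTCH1 position 139409969 had a left median of 89% (60% to 100%, n = 9) and a right median of 100% (83% to 100%, n = 11). The difference was 13.08 ± 4.35 (SE, n = 20; limma p = 0.00679, adjusted p = 0.93).

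Of the 33 tested regions 1 had an unadjusted p under 0.05 between hemispheres (3.03%), beside 3.12% over the table, and 0 of 21253 (0%) passed the adjusted threshold. It was the DLL1 region chr6:170597305-170597414. The left samples ran from 48.3% to 75.3% (median 58.8%, n = 11) and the right from 43.8% to 58.4% (median 50.1%, n = 12). The difference was -7.37 ± 2.67 points (SE, n = 23; limma p = 0.0115, adjusted p = 0.975). The fitted level was lower in the right samples at 11 of its 12 positions. The highest left value was that of left 3, with 9 of the 12 positions, and the difference was -5.60 without it. The next regions were DLL4 chr15:41223820-41223892 with -2.34 (p = 0.0834) and HES1 chr3:193858470-193858622 with 12.08 (p = 0.109), the latter 4.97 without right 3. For whole windows, with values set against the mean of each position, DLL1 differed by -1.71 points between right and left (95% interval -3.07 to -0.36). The highest DLL1 levels on this kind of mean were 30.1% in left 4 and 28.3% in left 3. These libraries had values at only 38 and 28 of the 103 positions. With plain means the DLL1 difference was -5.41 (-13.71 to 2.89). The intervals of the other 7 windows held 0 on both kinds of mean. These window values are a description, not adjusted over the windows.

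The dependence of the score slope on hemisphere was tested as an interaction, and 0 of 442 positions were called (limma, adjusted p under 0.05), beside 0 of 192151 (0%). At an unadjusted p under 0.05 there were 13 of 442 (2.94%), beside 3.24%. Of these 13, 11 were among the 123 tested NOTCH1 positions, 10 of them with a higher slope in the right samples. NOTCH3 and DLL1 had 1 each. Neighbouring positions share reads and monkeys, and regions share monkeys, so the signs at positions or regions are not independent. The smallest interaction p of a NOTCH1 region was 0.081 (limma). With 1 monkey left out the 13 became 11 (2.47%, without right 1, beside 3.36% of the table) to 23 (5.02%, without left 6, beside 3.76%). Over all tested window positions 64.9% had a positive interaction, that is, a higher slope in the right samples, beside 58.8% over the table. Among the 33 tested regions 81.8% had a positive interaction, beside 61.6% over the table. Of these regions 0 were called (limma, adjusted p under 0.05), beside 0 of 21253 (0%), and 1 had an unadjusted p under 0.05 (3.03%), beside 3.56%. It was the NOTCH3 region chr19:15271630-15271866, with a slope that differed by 4.94 ± 2.33 points per score unit between right and left (SE, n = 20; limma p = 0.0483, adjusted p = 1). With 1 monkey left out the count of such regions ran from 0 to 3. The highest count was 3 of 34 (8.82%) without right 4, beside 3.35% of the table. The interaction over regions was added after the data had been seen.

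For age, 0 of 442 window positions were called (limma, adjusted p under 0.05), beside 102 of 192151 (0.0531%). At an unadjusted p under 0.05 there were 13 (2.94%), 11 with a positive and 2 with a negative slope, beside 4.06% over the table (2.73% positive and 1.33% negative). Without left 3 and right 9 there were 23 of 466 (4.94%), beside 6.04% of the table. The smallest p belonged to DLL1 position 170598686, which was at 0 in 16 of 20 monkeys. The oldest monkey, left 1, had 33%, and right 7, right 9 and right 11 had 7%, 7% and 10%. The level differed by 22.94 ± 5.57 points for each year of age (SE, n = 20; limma p = 4.61e-04, adjusted p = 0.259) and by -11.02 without left 1. JAG2 position 105609196 was at 88% to 100% in all 22 monkeys with a value, with a slope of -11.66 ± 3.31 points per year (SE, n = 22; limma p = 0.00177, adjusted p = 0.473). At JAG2 position 105617305, left 1 was the lowest monkey at 3% and the highest was left 9 at 78%. There the difference for each year was -55.12 ± 18 points (SE, n = 21; limma p = 0.00553, adjusted p = 0.754) and -70.02 without left 1.

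Among regions, 0 of 33 were called for age (limma, adjusted p under 0.05), beside 12 of 21253 (0.0565%), and 2 had an unadjusted p under 0.05 (6.06%), beside 4.81%. The NOTCH3 region chr19:15271630-15271866 ran from 61.4%, in left 1, to 80%, with a median of 73.6% (n = 20). For each year the difference was -10.83 ± 3.77 points (SE; limma p = 0.00959, adjusted p = 0.838) and -5.13 without left 1. The NOTCH1 region chr9:139418359-139418499 had a slope of 13.73 (limma p = 0.0469, adjusted p = 0.999). The third region by p, NOTCH1 chr9:139408849-139408978, had 11.96 (p = 0.0902), and -10.22 without left 1.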

How the data were processed

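The labels' protocols describe MspI digestion, selection of adapter-ligated fragments, bisulfite conversion and HiSeq sequencing. Per the submitters' processing notes, Bismark 0.11.1 and the build hg19 were used. The authors deposited 1 table with the methylation level of each position in each monkey as a fraction from 0 to 1. No source used here states a coverage filter. Fractions were multiplied by 100.

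A position was tested where 20 or more monkeys had a value and the range reached 10 points (192151 of 444312, and 442 of 1105 in the windows), a region where the range reached 5 points (21253 of 32706, and 33 of 47). In the windows 517 positions had too small a range and 198 had values in too few monkeys, and some positions fell under both. The model, in limma 3.58.1 and R 4.3.3 with a variance trend on the mean, held score and age, plus hemisphere where that was tested, and ran over the whole table with missing values omitted. The Benjamini-Hochberg adjustment covered all tested features, 2-sided, at 0.05. The fit was tested on simulated data. A region's level is the plain mean of a monkey's values. The windows are oriented by the known strand of each gene. Nothing in the labels says how samples were batched. Figures were drawn with matplotlib 3.10.9 in Python 3.11.15.

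The members, lists and tests were chosen with earlier results of these data known. Named items followed a rule: all 8 genes, in each window the region with the most positions, the highest region of at least 5 positions and the smallest p for the score, over all windows the leading 5 positions and 5 regions by p for the score, 3 each for hemisphere and age, and the 5 positions with the largest SD. Other Notch pathway genes, gene annotation and promoter or protein sequences were not analysed here. Alternatives covered the scale, filters, variance trend, covariates, region definition, complete positions and the monkeys kept.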

Additional observations from a re-analysis of the deposited data

How the results depend on the processing

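No call for the score, for hemisphere or for the interaction over positions was made under any alternative run. For age, 1 position, DLL1 170598686, was called without right 11 (adjusted p 0.0457, limma), a range of 0 to 1 over the monkeys left out. With 1 monkey left out its slope ran from -11.02 (without left 1) to 26.61, and that of the NOTCH1 region at 139408849 to 139408978 from -10.22 (without left 1) to 16.49. Without left 1, left 3 and right 9 together they were -10.32 and -10.46. The score slopes named kept their sign in 502 of 506 alternatives, the hemisphere differences in 201 of 201. These items were named for a small p, and most alternatives share most monkeys and values. A kept sign is therefore not independent support. The 4 turns came within an identifier series: 0.10 at DLL4 41219822 within r, and within B 0.45 at HES1 193854826, -0.28 at JAG2 105617016 and 0.12 at the DLL1 region at 170592617 to 170592992. Score positions at an unadjusted p under 0.05 numbered 8 to 20 with 1 monkey left out (20 without right 9), 22 of 466 without left 3 and right 9, 18 of 892 with no range filter (2.02%, beside 2.59% of the table under that setting), 7 of 442 on the logit scale (1.58%, beside 2.94%) and 1 of 171 at complete positions (0.585%, beside 1.97%). Fewer positions tested and fewer samples enter by construction, and otherwise the cause was not tested. Window means at complete positions alone were 25% for NOTCH1, 23.1% for NOTCH3, 15.5% for JAG2, 56.7% for DLL1, 9.74% for DLL4 and 2.28% for HES5. HES1 and HEY1 have none, and the order of the windows turned, with DLL1 highest, from 21 positions. The slopes of plain window means on the score (0.13 for NOTCH3, -0.02 for DLL4 and 0.83 for HES5) became -1.40 for NOTCH3, 0.22 for DLL4 and -0.58 for HES5 within r, and -0.26 for HES5 within B. With 1 monkey left out they ran from -0.69 to 0.37 for NOTCH3, -1.52 to 0.39 for DLL1, -0.09 to 0.05 for DLL4, -0.10 to 0.29 for HES1, -0.13 to 1.21 for HES5, -0.15 to 0.06 for HEY1, -0.85 to -0.13 for NOTCH1 and -0.70 to -0.09 for JAG2. Alternatives that required only 17 monkeys, centred window levels or stayed within a series for single items were chosen after seeing the data. The stricter coverage minimum was not run because the table holds no coverage. No paired analysis was possible because a monkey has a single sample and sample numbers are names without pairing.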
